A study of Mus musculus with 8 samples.

Results

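The comparison described here sets cells carrying histone H3.1 with lysine 36 replaced by methionine (H3.1 K36M) against cells carrying the same histone with lysine 36 replaced by arginine (H3.1 K36R). C3H10T1/2 is a mouse cell line of embryonic mesenchymal origin that can be driven towards cartilage, bone and fat. Both lines stably expressed their histone with a FLAG-HA tag, on top of the cells' own histone genes, were at passage 10 to 15 and were grown with 10% fetal bovine serum. For reference there were 6 more C3H10T1/2 lines, each expressing FLAG-HA-tagged histone H3.3, either wild type (WT) or with K36A, K36I, K36L, K36M or K36R. Each of the 8 lines gave 1 RNA-seq library, and no H3.1 WT or untransduced line was analysed here. Of the 31276 genes in the table, 14412 were kept because their mean over the 2 H3.1 libraries lay at least 1 above the lowest value on the log2 scale, which is a level of about 31 normalised reads. Of the 16864 genes left out, 10437 had 0 reads in both H3.1 libraries, and 175 genes lay within 0.05 inside that limit against 140 just outside it.

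Lysine 36 of histone H3 is methylated along active genes and in large domains between genes, by enzymes that include SETD2, NSD1 and NSD2 (Whsc1). A lysine-to-methionine or lysine-to-isoleucine change at this position blocks these enzymes on the unmutated histones as well, while arginine removes the methylation site without acting as an inhibitor, which makes K36R a control for the loss of the site itself. H3.1 is deposited during DNA replication and H3.3 throughout the cell cycle. In mesenchymal progenitors, H3K36 methylation limits where Polycomb repressive complex 2 (PRC2) places H3K27 methylation, and K36M is the recurrent substitution of chondroblastoma.

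With 1 library on each side there is no replicate error, so no difference between the H3.1 libraries has a test. Differences below are H3.1 K36M minus H3.1 K36R on the log2 scale of the deposited table, levels are normalised reads, the recovered reads scaled by a size factor for each library without correction for gene length, and a fold carries a 95% interval that covers counting error only. The H3.1 K36M library held about 45448200 reads and the H3.1 K36R library about 53199100, fewer than the 61139900 to 68021000 of the H3.3 libraries. Reads of the ribosomal RNA gene Rn45s made up 1.70% and 2.02% of the H3.1 libraries and 1.66% to 5.24% of the H3.3 libraries. All 15 mesenchymal marker genes looked for were kept, with collagen genes Col1a1, Col1a2 and Col3a1, Vim and Prrx1 at 32524 or more normalised reads in both H3.1 libraries. In these bulk cultures fewer cells making a transcript and less of it per cell cannot be told apart.

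Most genes lay close together in the H3.1 pair. The median difference over the 14412 genes was -0.0012, and 11496 of them (79.8%) differed by less than 0.5. A difference of at least 1 was seen for 631 genes higher in H3.1 K36M (4.38%) and 449 genes lower (3.12%). At a difference of at least 2 there were 179 higher and 125 lower, and at a difference of at least 4 there were 19 and 10.

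**Figure D1:**
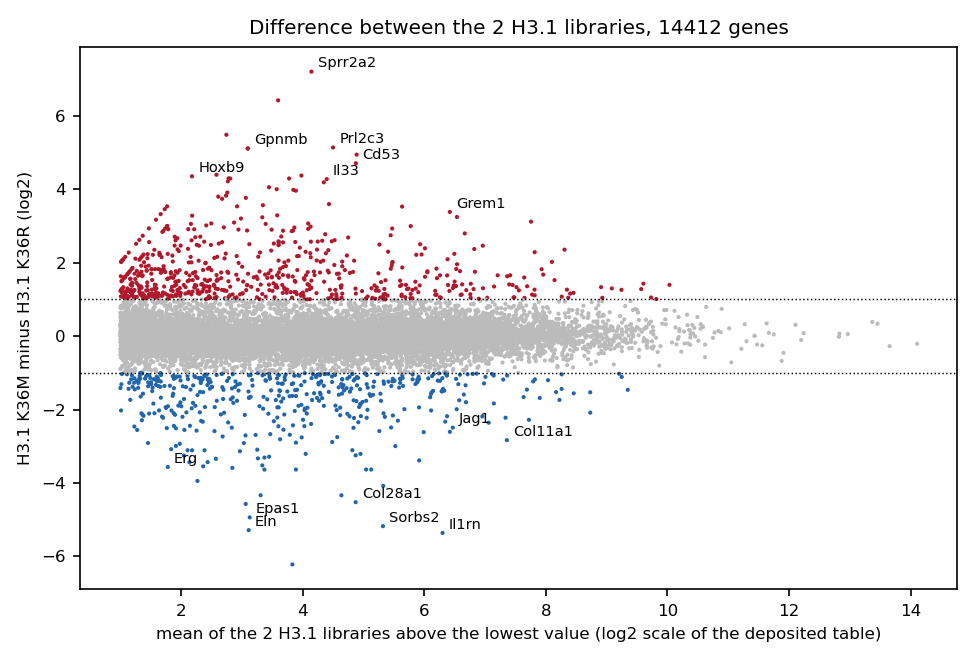
Each point is 1 of the 14412 genes, with its mean level in the 2 H3.1 libraries above the lowest value of the table on the x axis and H3.1 K36M minus H3.1 K36R on the y axis, both on the log2 scale. Red points are the 631 genes higher by at least 1, blue points the 449 genes lower by at least 1 and dotted lines mark 1 and -1.

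The largest difference of a named gene was that of Sprr2a2. Sprr2a2 and Sprr2a1 encode small proline-rich proteins that keratinocytes cross-link into the cornified envelope. Their annotated spans overlap on chromosome 3 (GRCm38, 92215920 to 92256724 and 92215799 to 92221911). Sprr2a2 had 13189 normalised reads with H3.1 K36M and 8.75 with H3.1 K36R, a difference of 7.21 and a fold of 1508 (765 to 3494). In the H3.3 lines Sprr2a2 stood at 18404 in K36M and 1386 in K36I, against 3.72 in WT, 69.9 in K36A, 52.6 in K36L and 1.90 in K36R. The H3.3 K36M and K36I lines and H3.1 K36M were thus high and the other 5 low, without overlap. Sprr2a1 gave 6823 and 4.37 normalised reads in the H3.1 pair, and because its annotated exons overlap those of Sprr2a2 and their sequences are close, the reads of the pair cannot be separated with certainty. Of 14 epithelial marker genes only Cdh1 and Esrp2 were kept, neither differing by 1, and the 14 summed to 821 normalised reads with H3.1 K36M, 649 with H3.1 K36R and 1008 to 7950 in the H3.3 lines. Krt18, Cldn3 and Cldn4 had 0 reads in both H3.1 libraries and Epcam 0 and 2.

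Prl2c3 and Prl2c2, proliferin hormones of the prolactin family made by placental giant cells and by growing fibroblast lines, stood at 8196 and 10050 normalised reads in H3.1 K36M against 128 and 218 in H3.1 K36R. Their H3.3 values were far lower, with Prl2c2 at 85.9 in H3.3 K36M, 697 in K36I and 2.79 to 62.7 in the other 4 lines. The fold between the H3.1 lines was 46.2 (40.1 to 53.4) for Prl2c2, whereas its difference between H3.3 K36M and H3.3 K36R was 0.22. These genes are near-identical copies, so a read may have been given to either.

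Gpnmb, a transmembrane glycoprotein of pigment cells, osteoclasts and macrophages, had 2998 normalised reads with H3.1 K36M and 8.75 with H3.1 K36R, a fold of 343 (174 to 795). Its level was 351 in H3.3 K36M, 296 in H3.3 K36I and 0 to 5.75 in the other H3.3 lines. Heph, a copper-dependent iron oxidase, had 2993 and 8.75, with 972 and 832 in H3.3 K36M and K36I and 247 in H3.3 K36A, so that K36A lay between the low and the high lines. Its exons overlap those of Hsf3 on the opposite strand. Nxf3, of the nuclear RNA export factor family, had 1581 and 4.37. Styk1, a receptor-like kinase, had 3500 and 125, close to its 3015 and 2944 in H3.3 K36M and K36I.

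Cd53, Lcp1, Havcr2 and Slfn4, which are best known from blood cells, were among the 15 genes furthest above H3.1 K36R. Cd53, a tetraspanin of leukocytes, had 9176 normalised reads with H3.1 K36M and 242 with H3.1 K36R. Lcp1, the leukocyte plastin that bundles actin, had 5266 and 184. Havcr2 (TIM-3), an inhibitory receptor of T cells and myeloid cells, had 2830 and 80.9, and Slfn4, a Schlafen gene induced in macrophages, had 1701 and 13.1. Of the 19 leukocyte markers looked for, 6 were kept and only Cd53 and Lcp1 differed by at least 1. Over all genes 4.38% were higher and 3.12% lower by at least 1. The 19 summed to 16105 normalised reads with H3.1 K36M and 1310 with H3.1 K36R, and 704 to 9897 in the H3.3 lines. Cd53 and Lcp1 made up most of the H3.1 K36M sum. The pan-leukocyte gene Ptprc had 6 reads with H3.1 K36M and 0 with H3.1 K36R, Cd3e, Itgax and Tyrobp had 0 reads in both, and Spi1 had 0 and 3.

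Ankrd1, a stretch-responsive target of YAP and TEAD, had 4327 and 108 normalised reads, a fold of 40.0 (32.7 to 49.3). Of the 28 kept targets of that pathway, 2 were higher by at least 1, Ankrd1 and Crim1. Lower by at least 1 were 3, Rbms3, Nov and Tgfb2 (-2.01, -1.99 and -1.59). The shares over all genes were 4.38% and 3.12%. The list median was 0.23, and Crim1 differed by 1.14. Ctgf and Cyr61, the best known targets, differed by 0.34 and -0.40. Hoxb9, a homeobox gene of the thoracic body axis, had 1149 normalised reads with H3.1 K36M and 0 reads with H3.1 K36R, which makes it at least 350-fold higher, rounded down, against a floor of 3 reads in the H3.1 K36R library. Its neighbour Hoxb7 had 131 and 2.19, while Hoxa2 and Hoxa3 were lower (-1.20 and -1.21), and 7 more Hox genes of the 11 kept differed by less than 1. That is 2 higher and 2 lower by at least 1, against 4.38% and 3.12% of all genes.

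**Figure D2:**
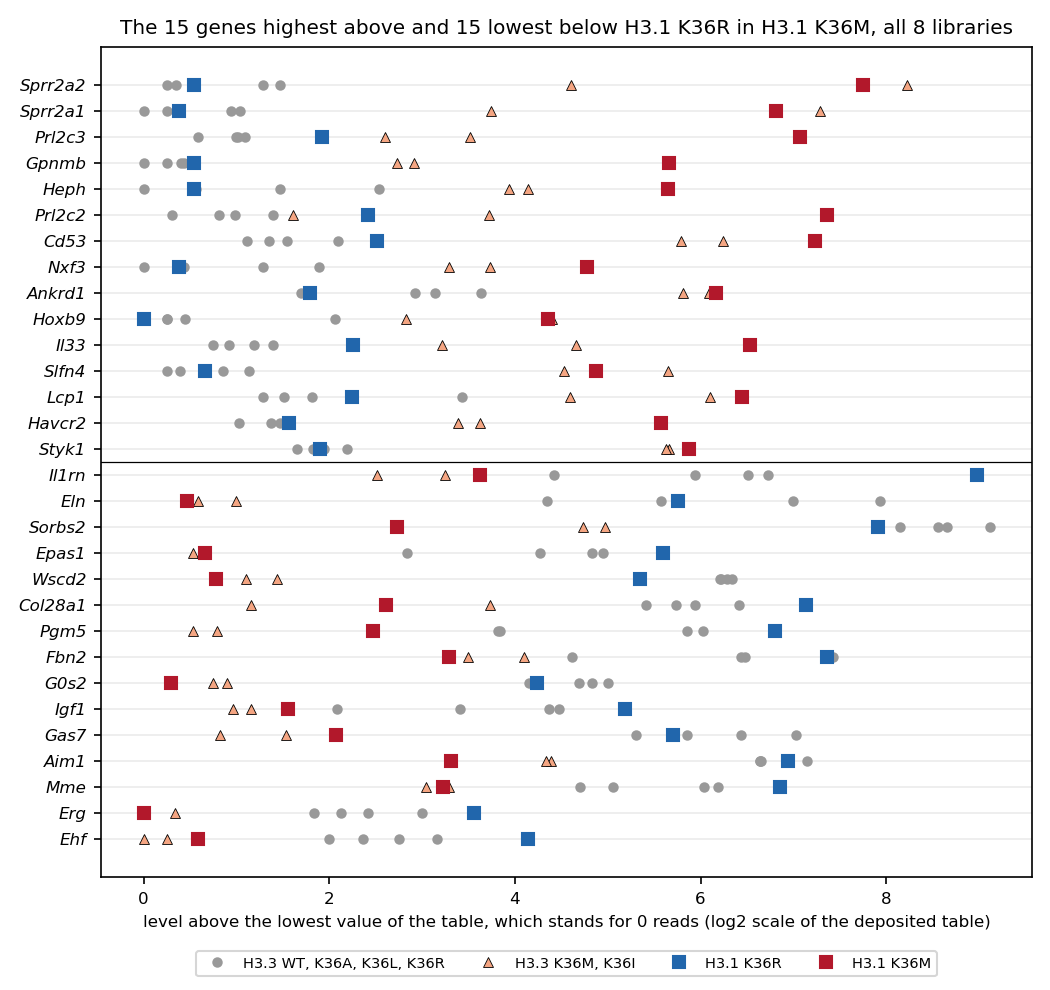
Level of the 15 genes furthest above and the 15 furthest below H3.1 K36R in H3.1 K36M, in all 8 libraries, as log2 units above the lowest value of the table, which stands for 0 reads. Red squares are H3.1 K36M, blue squares H3.1 K36R, triangles H3.3 K36M and K36I, and grey points the other 4 H3.3 lines. Sprr2a2 is at 13189 normalised reads with H3.1 K36M and 8.75 with H3.1 K36R, and Eln at 6.57 and 3220.

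Eln, Fbn2, Col28a1 and Igf1 were among the 15 genes furthest below H3.1 K36R. Eln, which encodes elastin, had 6.57 normalised reads with H3.1 K36M and 3220 with H3.1 K36R, a 490-fold lower level (210 to 1510). In H3.3 it was at 30.5 in K36M and 10.2 in K36I, against 1137 in K36A, 2838 in K36L, 7794 in WT and 15057 in K36R, so the low and high lines did not overlap. Fbn2, the fibrillin of embryonic microfibrils, had 486 and 10077, whereas its homologue Fbn1 differed by 0.06. Ltbp1 and Efemp1, which also belong to elastic fibres and microfibrils, were higher by 2.37 and 1.80. Of 19 kept elastic fibre genes 3 were higher and 2 lower by at least 1, against 4.38% and 3.12% of all genes. The list had a median of 0.09 and a mean of -0.12, so it had no common direction. Col28a1 (264 and 8564) and Col8a2, a network collagen of the corneal Descemet membrane, were lower, with differences of -4.52 and -3.21. Igf1, the circulating and local growth factor, had 78.9 and 2134.

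Il1rn, the secreted antagonist of the interleukin-1 receptor, had 643 normalised reads with H3.1 K36M and 31168 with H3.1 K36R, a 48.5-fold lower level (44.3 to 53.1). The H3.1 K36R value was above all 6 H3.3 lines, which ran from 240 in K36I to 6417 in K36A, and the H3.1 K36M value lay between H3.3 K36M at 471 and H3.3 K36L at 1209. The H3.1 K36R library was thus the high one among the 8. Sorbs2, an adaptor of actin fibres and cell junctions, was the reverse case, with 297 in H3.1 K36M below all H3.3 lines (1526 to 34200) and 14759 in H3.1 K36R just under the 17468 of H3.3 K36R.

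Epas1, which encodes the hypoxia factor HIF-2alpha, had 13.1 and 2875 normalised reads, a 219-fold lower level (119 to 457). Hif1a, which encodes its relative HIF-1alpha, differed by 0.13. Of 31 kept hypoxia and glycolysis genes 1 was higher by at least 1 and 2 were lower, Epas1 among them. The shares over all genes were 4.38% and 3.12%. G0s2, an inhibitor of fat breakdown, had 2.63 normalised reads from 2 reads with H3.1 K36M and 1051 with H3.1 K36R. Erg, an ETS transcription factor of endothelium and developing cartilage, had 0 reads with H3.1 K36M and 613 normalised reads with H3.1 K36R, at least 155-fold lower against the floor of 3 reads. Of 10 endothelial markers 2 were kept, Tek (336 and 2068) and Vwf, which went the other way (244 and 77.6). The 10 summed to 611 with H3.1 K36M, 2201 with H3.1 K36R and 502 to 3377 in H3.3. Tek made up most of the H3.1 K36R sum. Tie1 and Cldn5 had 0 reads in both H3.1 libraries. Ehf, an epithelial ETS factor, had 10.5 and 969, and Mme, the membrane metalloendopeptidase CD10, 463 and 7066. Wscd2, Pgm5, Gas7 and Aim1 were the other genes among the 15 lowest, between 15.1-fold and 130-fold lower. Annotated exons of Eln, Sorbs2, Fbn2, Gas7 and Lcp1 overlap a gene on the opposite strand, and whether counting used strand is not given in the sources used here. A predicted gene and a clone lay outside the rule for named genes and were noted after their values were seen: Gm5886 was lower (-6.22) and 3830417A13Rik higher by 5.49.

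The cartilage genes were the list furthest below H3.1 K36R. Of 15 kept, 12 were lower by at least 1, none was higher by at least 1, and the median was -1.61, against a background in which 3.12% of genes were lower by at least 1. Sox9, the master regulator of chondrocytes, had 846 normalised reads with H3.1 K36M and 3119 with H3.1 K36R. Sox6, its partner, had 15.8 and 981. Among their matrix targets, Col2a1 had 10374 and 30046, Col11a1 3684 and 26986, and Col9a1 and Fmod were lower (-2.34 and -2.57). Cytl1, a secreted factor of chondrocytes, had 0 reads with H3.1 K36M and 229 normalised reads with H3.1 K36R, and so was at least 57.9-fold lower against the same floor. Col11a2, Prg4 and Col10a1 stood above 0 with differences of 0.83, 0.23 and 0.14. The summed level of all 28 cartilage genes in the list was 18996 with H3.1 K36M and 71113 with H3.1 K36R, close to 18070 and 75617 in H3.3 K36M and H3.3 K36R, while H3.3 WT, K36A and K36L held 139776 to 183309. In this sum the K36R lines of both histones thus lay between the K36M lines and the 3 highest H3.3 lines. Col2a1 and Col11a1 made up most of the H3.1 K36R sum. Over the 15 kept genes the median of H3.1 K36R minus H3.3 WT was -0.0036, so the order of the sums does not hold for the typical member.

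Bone and fat genes went both ways, with more members below 0 than above. Below 0 lay 11 of the 15 kept osteoblast genes, with a median of -0.36, and 11 of the 17 adipocyte genes, with a median of -0.20. Of 15 osteoblast genes 2 were higher and 2 lower by at least 1, against 4.38% and 3.12% of all genes. Spp1 (osteopontin) had 34125 and 8298 normalised reads and Phex was higher by 1.51. Tnfrsf11b, the osteoclast inhibitor osteoprotegerin, had 2124 and 11153 and Pth1r was lower (-1.16). Runx2 differed by -0.34. Of 17 adipocyte genes 1 was higher and 5 lower by at least 1, against the same shares. Among the lower were Cebpa (121 and 1350), Cebpd and Zfp423, regulators of early fat commitment. Pparg differed by -0.70, and Lpl was higher by 1.27.

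Of 16 kept Notch signalling genes 4 were lower by at least 1 and none was higher by at least 1, against 3.12% and 4.38% of all genes, with a list median of -0.25. The ligand gene Jag1 had 2190 normalised reads with H3.1 K36M and 12877 with H3.1 K36R, the receptor gene Notch1 846 and 3554, and the target genes Hey1 and Hey2 44.7 and 348, and 10.5 and 312. Notch2 and Notch3 differed by -0.14 and 0.82, and the target Hes1 by -0.53. In H3.3 these 4 genes differed by -2.92, -2.20, -3.24 and -2.99, and the list had 6 members lower and 2 higher by at least 1.

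In the Hedgehog pathway the co-receptor genes Boc (888 and 7915) and Gas1 (3525 and 18568) were lower (-2.99 and -2.36). The other 9 of 11 kept members differed by less than 1, with Smo at -0.65 and Gli1 at -0.79. Thus 0 were higher and 2 lower by at least 1, against 4.38% and 3.12% of all genes. WNT genes went both ways, with ligands, receptors and inhibitors on either side. The R-spondin ligands Rspo2 (1469 and 9615) and Rspo3 (208 and 1471) and their receptor Lgr4 were lower. So were the WNT receptor Ror1, the transcription factor Tcf7 and the antagonists Sfrp2 (5.26 and 776) and Frzb. The ligands Wnt7a (156 and 2.19) and Wnt9a, the receptor Lgr6 and the WNT-inactivating enzyme Notum were higher. Of 24 kept, 4 were thus higher and 7 lower by at least 1, against 4.38% and 3.12% of all genes. For BMP signalling, the antagonist Grem1 had 17018 and 1519, and the pseudoreceptor gene Bambi 162 and 1604. The BMP target genes Id3 and Id4 were lower (-1.29 and -1.26), while Bmp4 differed by -0.32.

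Genes of antigen presentation by MHC class I formed the list with the largest share of members above the limit, apart from the 6 kept cornified envelope and keratin genes. The class I pathway cuts proteins in the immunoproteasome, pumps the peptides into the endoplasmic reticulum and loads them on a heavy chain bound to beta-2 microglobulin. Of 19 kept members 13 were higher by at least 1 and none was lower by at least 1, with a median of 1.27, against 4.38% of all genes. The upstream bases of 4 members are given because heavy chain genes and B2m are known to share binding sites for NF-kB and interferon regulatory factors there. The 250 bases before the first RefSeq start (GRCm38.p6) lie at chr17:34000348-34000597 on the minus strand for H2-K1, chr17:35262844-35263093 on the plus strand for H2-D1, chr17:35379367-35379616 on the plus strand for H2-Q4 and chr2:122147437-122147686 on the plus strand for B2m. Capitals mark 3 motifs searched on both strands: GGGGATTCCCC, an NF-kB site form, and GTTTCACTTC, the interferon response form of class I heavy chains, both as read in H2-D1, and GAAANNGAAA, a general interferon response form, as read in B2m with its middle bases open.
H2-K1: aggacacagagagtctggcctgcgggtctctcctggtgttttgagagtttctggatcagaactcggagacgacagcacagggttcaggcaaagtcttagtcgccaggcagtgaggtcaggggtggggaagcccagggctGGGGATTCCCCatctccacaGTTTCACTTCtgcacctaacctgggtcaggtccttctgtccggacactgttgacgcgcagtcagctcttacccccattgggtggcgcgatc
H2-D1: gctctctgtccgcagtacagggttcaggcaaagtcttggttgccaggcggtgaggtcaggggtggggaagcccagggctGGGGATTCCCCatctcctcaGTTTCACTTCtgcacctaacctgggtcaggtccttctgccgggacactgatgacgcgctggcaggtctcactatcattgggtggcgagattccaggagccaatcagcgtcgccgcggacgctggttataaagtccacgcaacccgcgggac
H2-Q4: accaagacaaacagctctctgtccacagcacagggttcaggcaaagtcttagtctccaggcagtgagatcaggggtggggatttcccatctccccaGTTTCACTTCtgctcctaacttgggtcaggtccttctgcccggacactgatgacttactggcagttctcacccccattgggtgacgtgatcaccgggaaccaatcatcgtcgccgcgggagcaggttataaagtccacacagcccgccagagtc
B2m: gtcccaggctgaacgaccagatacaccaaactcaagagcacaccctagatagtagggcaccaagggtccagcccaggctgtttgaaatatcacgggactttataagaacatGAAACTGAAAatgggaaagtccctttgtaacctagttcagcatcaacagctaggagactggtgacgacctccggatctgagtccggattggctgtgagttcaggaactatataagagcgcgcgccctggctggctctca
The first motif was in 3 of the 16 class I list members with an entry in the RefSeq promoter table (H2-K1, H2-D1 and H2-Q6), the second in 6 and the third in 3 (H2-T22, H2-T23 and B2m). Over the 27025 genes of that table the shares were 0.0222%, 0.115% and 3.04%. These counts are a description only, since H2-D1 and B2m hold the motifs by construction and the heavy chain genes are close copies of each other. In H2-K1 and H2-D1 the first motif ended 9 bases before the second. No motif overlapped another in the printed stretches, and the assembly is of C57BL/6J mice, so the bases of the C3H-derived line may differ.

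The heavy chain gene H2-K1 had 17598 normalised reads with H3.1 K36M and 1744 with H3.1 K36R, a fold of 10.1 (9.58 to 10.6). H2-D1 had 16464 and 2260, H2-Q4 2865 and 471, and the non-classical H2-T23 2329 and 484. Nlrc5, the transactivator of class I genes, had 2935 and 250. B2m, the light chain, had 79043 and 29209. The immunoproteasome subunit genes Psmb8 (269 and 19.7) and Psmb9 (401 and 71.1) and the peptide transporter genes Tap1 (1973 and 751) and Tap2 were also higher, while the third subunit gene Psmb10 and the trimming peptidase gene Erap1 differed by -0.03 and -0.37. Each of the 19 genes was higher in H3.1 K36M than in any of the 6 H3.3 lines, a position held by 26.1% of all genes kept. H3.1 K36R was above all 6 H3.3 lines for 4 of the 19, against 21.9% of all genes. Class I genes are polymorphic between mouse strains and close to each other in sequence, and the effect of that on the reads given to each gene was not tested.

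Of 36 kept interferon-stimulated genes 10 were higher by at least 1 and none was lower by at least 1, with a median of 0.51. The shares over all genes were 4.38% and 3.12%. The 4 with the largest differences were Trim30a (3257 and 446), the antiviral sensors Oas1a (672 and 74.3) and Oas2 (443 and 42.6), and Mx1 (221 and 10.9), an antiviral GTPase. The regulators Irf7 and Irf9 differed by -0.39 and -0.23. For this list both H3.1 lines stood above H3.3: 34 of the 36 genes with H3.1 K36M and 30 with H3.1 K36R exceeded all 6 H3.3 lines. Of all genes, 26.1% and 21.9% held these positions.

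Cytokine genes showed the same placement for many members. Of 20 kept, 9 were higher by at least 1 and 2 lower, against 4.38% and 3.12% of all genes, with a median of 0.52. H3.1 K36M exceeded all 6 H3.3 lines for 16 and H3.1 K36R for 11, against 26.1% and 21.9% of all genes. Ccl2, the chief monocyte chemokine, had 30706 normalised reads in H3.1 K36M, 6184 in H3.1 K36R, 6102 in H3.3 K36I and 475 to 1523 in the other 5 H3.3 lines. H3.3 K36M, at 805, was thus among the low lines. Its neighbours Ccl7 and Ccl8 had 8999 and 2773, and 304 and 8.75. Il33, an alarmin cytokine kept in the nucleus, had 5617 and 185, Ptgs2, the inducible prostaglandin synthase, 44263 and 8530, and Lif and Csf1 were higher by 1.60 and 1.08. Besides Il1rn, Ccl20 was lower, with 137 and 524, and Il6 and Cxcl1 differed by -0.13 and -0.24.

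**Figure D3:**
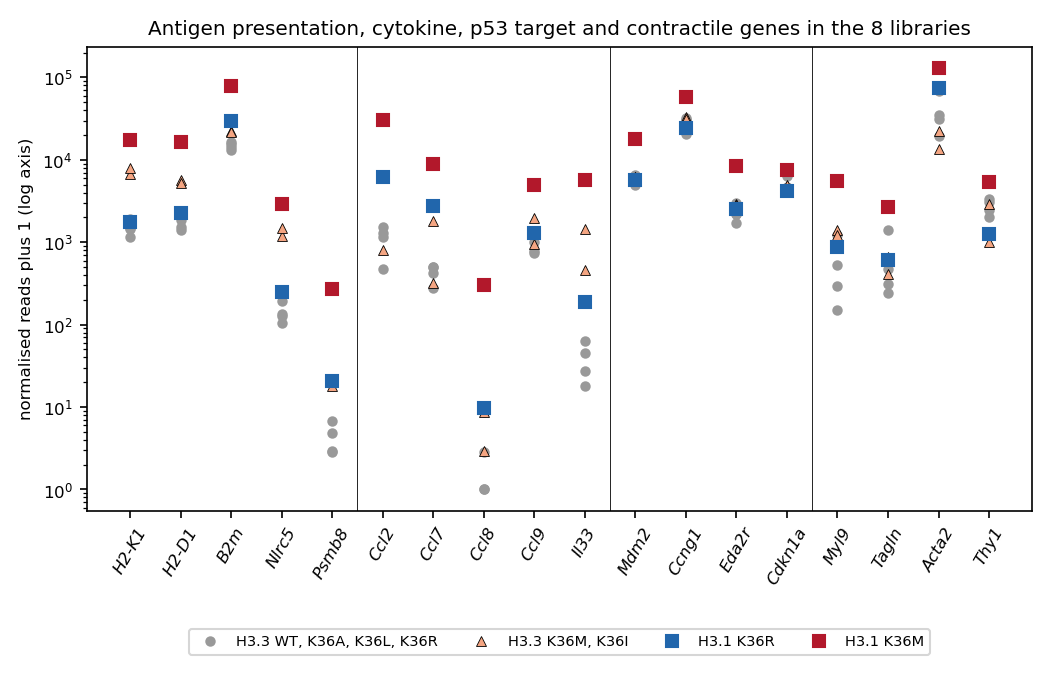
Normalised reads plus 1 on a log axis for genes of class I presentation, cytokines, p53 targets and contractile cells with Thy1, in the 8 libraries. Red squares are H3.1 K36M, blue squares H3.1 K36R, triangles H3.3 K36M and K36I, and grey points the other 4 H3.3 lines. H3.1 K36M is the highest library for each gene shown, as with Mdm2 at 17832 against 4949 to 6500 in the other 7. The genes shown are chosen members and do not stand for their whole lists. Il1rn, Ccl20, Sesn1, Perp and Itga1 of these lists, not shown, were lower in H3.1 K36M than in H3.1 K36R.

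The list of CDK inhibitors and targets of the tumour suppressor p53 had 3 of 21 kept genes higher by at least 1 and 1 lower. The shares over all genes were 4.38% and 3.12%, and the list median was 0.57. Mdm2, the ubiquitin ligase that p53 induces and that removes p53, had 17832 normalised reads with H3.1 K36M and 5664 with H3.1 K36R, a fold of 3.15 (3.05 to 3.25). The 6 H3.3 lines held 4949 to 6500, so H3.1 K36M alone was high. The same order was seen for Ccng1, with 57999 and 24091 and 20777 to 32638 in H3.3, and for the death receptor gene Eda2r, with 8305 and 2545 and 1731 to 2968 in H3.3. Cdkn1a, which encodes the cell cycle inhibitor p21, had 7555 and 4172, with H3.3 lines at 4618 to 6805. Sesn1 was the lower gene (1130 and 2580). The CDK inhibitor genes Cdkn1b, Cdkn2c and Cdkn2d differed by -0.31, -0.57 and -0.62. Trp53 itself differed by 0.15, Bbc3 by 0.04 and Perp by -0.86. The cyclin genes Ccnd1 (75621 and 36351) and Ccnd2 (17844 and 7431) were higher, against the same 4.38% of all genes. The other 44 of 46 cell cycle and replication genes differed by less than 1, with a list median of -0.07 and Mki67 at -0.37.

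Of 18 kept smooth muscle and myofibroblast genes 7 were higher by at least 1 and 1 lower, against 4.38% and 3.12% of all genes. The list median was 0.69, and 6 of the 18 lay below 0. Actg2, the enteric smooth muscle actin, had 2784 and 269, Myl9, a myosin light chain, 5524 and 880, and Tagln, an actin-binding protein, 2660 and 607. Acta2, alpha smooth muscle actin, had 129877 and 74638, a difference of 0.80. The integrin gene Itga1 was the lower member, with 1200 and 6389. H3.1 K36M exceeded all 6 H3.3 lines for 13 of the 18, against 26.1% of all genes. Basement membrane genes went both ways: Lama5 (1711 and 199), Lamb1 (28300 and 7898) and the linked collagen genes Col4a1 and Col4a2 were higher, and Lamb3 (206 and 1131) and Lama1 were lower. Of the growth factor and receptor list, 8 of 36 were higher and 3 lower by at least 1, against 4.38% and 3.12% of all genes. Hgf (1596 and 297), its receptor gene Met, and the EGF receptor ligand genes Hbegf, Areg and Ereg were among the higher, and Fgfr2 (360 and 2376) and Pdgfd (98.6 and 1894) among the lower.

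Replication-dependent histone genes, which are transcribed in S phase to package new DNA, were each lower by a small amount. All 60 kept members had a difference below 0, also with the library medians set equal and with library totals as scaling, and the median was -0.67. Only 3 reached -1, against 3.12% of all genes: Hist1h1a (6909 and 14657), Hist1h2bp and Hist1h2bh. The 9 kept Hist1h3 genes, which encode the cells' own H3.1 and H3.2, differed by -0.44 to -0.80. The summed level of the histone list was 254755 normalised reads with H3.1 K36M and 410555 with H3.1 K36R, with 337370 to 386669 in H3.3. H3.1 K36M was below all 6 H3.3 lines for 50 of the 60 genes, against 24.6% of all genes. H3.1 K36R was above all 6 for 30, against 21.9% of all genes. Whether the library preparation selected polyadenylated RNA, which most of these transcripts lack, is not given in the sources used here, and its part in this result was not tested. The H3.3 genes H3f3b (43612 and 76113) and H3f3a (8434 and 11932) differed by -0.80 and -0.49, and reads of the transgenes cannot be told apart from those of the cells' own genes.

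Genes of cholesterol synthesis, which SREBP factors control together, were modestly lower, with a median of -0.40 and 19 of 26 kept members below 0, though none differed by 1. Stard4 (2379 and 4162), Dhcr7 (464 and 868) and Pmvk had the lowest values, at -0.78, -0.77 and -0.69. Both H3.1 lines were below all 6 H3.3 lines for 23 of the 26 genes each. Of all genes, 24.6% held this position with H3.1 K36M and 21.6% with H3.1 K36R. Ribosomal protein genes had a median of -0.20, with none differing by 1 and 40 of 46 below 0. Here H3.1 K36M lay below all 6 H3.3 lines for 45 genes and H3.1 K36R for 32, against 24.6% and 21.6% of all genes.

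For the enzymes and complexes that write and read the marks near lysine 36, none of 12 H3K36 methyltransferase genes, 22 demethylase and reader genes, 12 PRC2 genes, 14 DNA methylation genes and 14 H3.3 and H3 chaperone genes reached a difference of 1. Setd2 had 7281 and 7134 normalised reads, Nsd1 14718 and 14709, Whsc1 14787 and 12147, Whsc1l1 4726 and 4612, and Ash1l 6753 and 6759. In PRC2, Ezh2, the catalytic subunit, was at 2774 and 4118, a difference of -0.55 that was the largest in size of that list, and Eed and Suz12 differed by 0.15 and 0.11. Tet1, which oxidises methylated cytosine, had 283 and 654, a difference of -0.96 and the nearest to the limit in these lists. In PRC1, Pcgf5 (2516 and 693) was higher and Rnf2, a catalytic subunit, was lower (2367 and 5472). Pcgf5 was also high in H3.3 K36M and K36I, at 3675 and 3694, while Rnf2 in H3.3 ran from 2363 in K36I to 3727 in K36R.

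**Figure D4:**
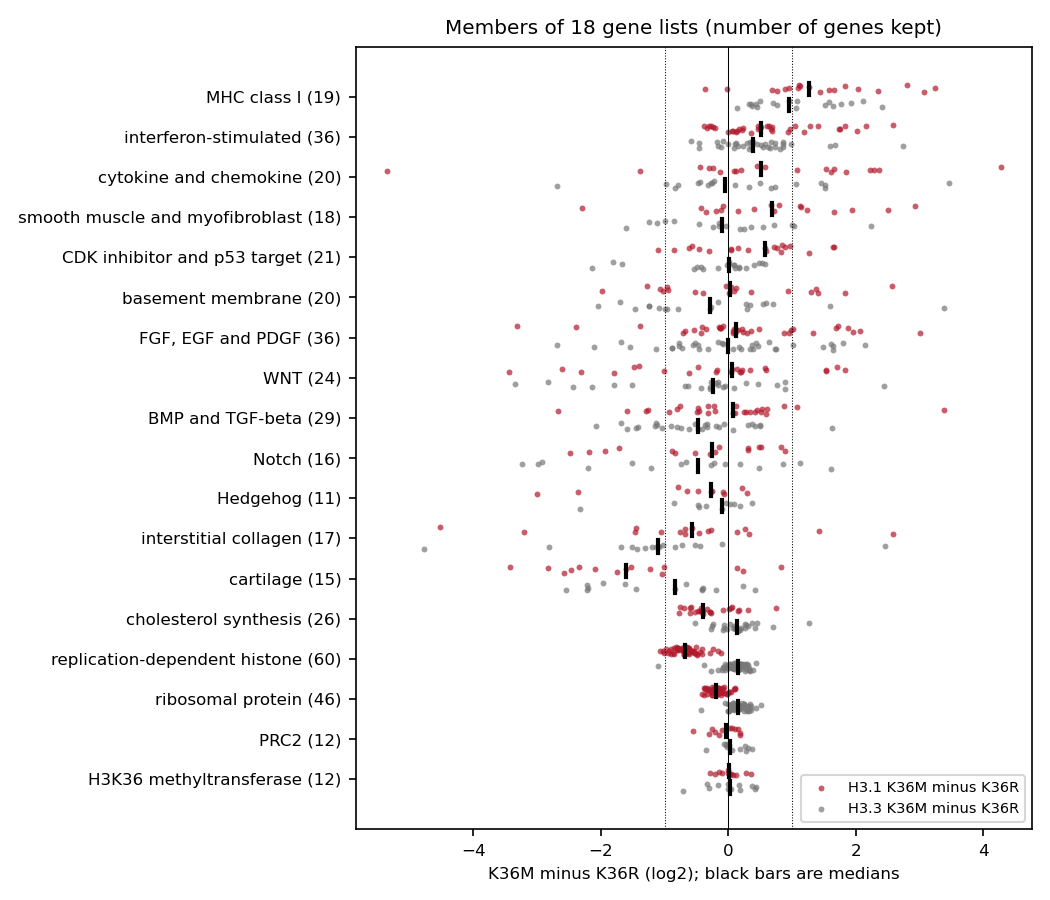
Each point is a kept gene of 1 of 18 lists, with H3.1 K36M minus H3.1 K36R in red and H3.3 K36M minus H3.3 K36R in grey on the x axis (log2), and black bars at the medians. The cartilage medians are -1.61 in H3.1 and -0.83 in H3.3, the class I medians 1.27 and 0.94, and the histone medians -0.67 and 0.16.

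Over all lists, 6 of 43 had a median of 0.5 or more and 3 a median of -0.5 or less, and in 8 lists the median and the mean differed in sign. Beside those above, the interstitial collagen list had a median of -0.56. Of its 17 kept members 2 were higher and 5 lower by at least 1, against 4.38% and 3.12% of all genes. Col7a1, the anchoring fibril collagen, was higher (2752 and 365) and Col6a1 and Col6a2 were lower (-1.46 each). The early response list had a median of -0.32, with Fos at 2291 and 10818 and Fosl1 at 1557 and 571.

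The same pair of substitutions in H3.3 shares no library with the H3.1 pair. Over the 14412 genes the H3.1 difference had a Pearson correlation of 0.70 and a Spearman correlation of 0.47 with H3.3 K36M minus H3.3 K36R, given as a description because genes are not independent and the lines come from 1 cell line. In H3.3, 498 genes (3.46%) were higher and 616 (4.27%) lower by at least 1. Of the 631 genes higher in H3.1 K36M, 320 were also higher by at least 1 in H3.3 K36M, which is 50.7% of the H3.1 set and 64.3% of the H3.3 set. Of the 449 lower genes 300 were shared, 66.8% of the H3.1 set and 48.7% of the H3.3 set. The sign was the same in H3.3 for 577 of the higher and 429 of the lower genes.

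Set against H3.3 K36M minus H3.3 K36R, opposite differences of at least 1 were seen for 5 genes higher in H3.1 K36M and for none of the lower genes. Set against H3.3 K36I minus H3.3 K36R, there were 9 among the higher and 4 among the lower genes. Thy1, a surface glycoprotein of fibroblasts and progenitors, had 5441 normalised reads with H3.1 K36M and 1249 with H3.1 K36R, but 1008 in H3.3 K36M and 3071 in H3.3 K36R. H3.3 K36I, at 2918, stayed with the other H3.3 lines, which ran from 2027 to 3302. Col8a1 (1.43 and -1.69), Arhgef5 (1.37 and -1.03), Stmn2 (1.18 and -2.06) and Inhbb (1.08 and -1.16) were the others opposite in H3.3 K36M. At list level, the histone, cholesterol and ribosomal protein medians of -0.67, -0.40 and -0.20 in H3.1 stood beside 0.16, 0.13 and 0.15 in H3.3 K36M minus H3.3 K36R. The contractile, cytokine, and CDK inhibitor and p53 target medians of 0.69, 0.52 and 0.57 stood beside -0.09, -0.06 and 0.01. In H3.3 K36I minus H3.3 K36R, however, the cytokine median was 0.57, close to that of H3.1. The contractile and the CDK inhibitor and p53 target medians there were -0.17 and -0.04.

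**Figure D5:**
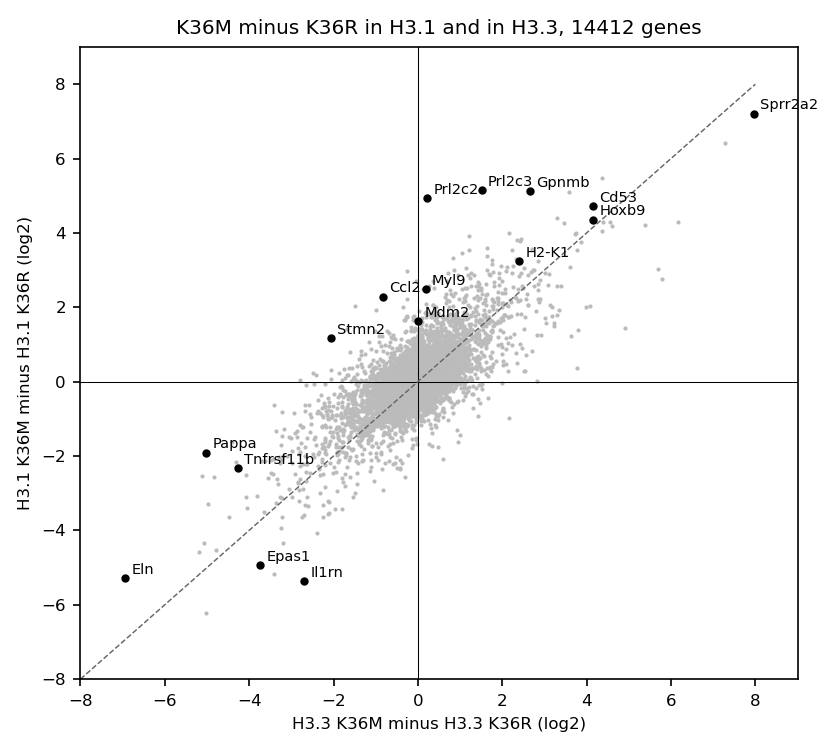
H3.3 K36M minus H3.3 K36R on the x axis and H3.1 K36M minus H3.1 K36R on the y axis (log2) for 14412 genes, with the dashed line marking equal differences. The Pearson correlation over genes is 0.70. Black points are labelled genes, with Prl2c2 (0.22 in H3.3, 4.95 in H3.1) and Ccl2 (-0.83 and 2.29) far above the line and Eln (-6.94 and -5.29) at the lower left.

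Whether a difference between H3.1 and H3.3 exceeds the spread between lines was tested with limma as an interaction. It sets the H3.1 difference against the mean of H3.3 K36M and K36I minus the mean of the other 4 H3.3 lines, with Benjamini-Hochberg adjustment over the 14412 genes, and takes the H3.1 libraries to vary like the H3.3 ones. No gene passed an adjusted p of 0.05 (0 of 14412, 0%), and 1649 genes (11.4%) had an unadjusted p under 0.05. The smallest adjusted p was 0.127, which Gpnmb shared, with an excess in H3.1 of 2.57 (SE 0.29). Adamts12, a matrix protease gene with a difference of -1.39 in H3.1 and -2.80 in the H3.3 contrast, also had an adjusted p of 0.127. For Mdm2 the excess was 1.55 (SE 0.21, adjusted p = 0.131), for Prl2c3 3.01 (SE 0.50, adjusted p = 0.155), for Ccl8 2.03 (SE 0.34, adjusted p = 0.155) and for Psmb8 1.37 (SE 0.21, adjusted p = 0.146). For Ccl2, where H3.3 K36M and K36I lie far apart, it was 1.23 (SE 1.42, adjusted p = 0.793), and for Thy1 2.62 (SE 0.73, adjusted p = 0.281). No gene is therefore called particular to H3.1 K36M. The test treats H3.3 lines with different substitutions as replicates, so its error includes differences between substitutions. The lack of calls thus does not show that the H3.1 and H3.3 differences are alike.

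The positions of the H3.1 libraries among the H3.3 lines are a description, because the same H3.1 values chose these genes, and nothing is read from their distance to the shares over all genes. Of the 631 higher genes, H3.1 K36M exceeded all 6 H3.3 lines for 446 (70.7%), against 26.1% of all genes kept, and H3.1 K36R lay within the range of H3.3 WT, K36A, K36L and K36R for 311, against 41% of all genes. Of the 449 lower genes, H3.1 K36M was below all 6 H3.3 lines for 158 (35.2%), against 24.6% of all genes, and H3.1 K36R was above WT, K36A, K36L and K36R for 184 (41.0%), against 29.4% of all genes.

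By level in H3.3 WT, the counts of higher and lower genes ran as follows. Of 65 kept genes with 0 reads in H3.3 WT, 46 were higher by at least 1 and 1 was lower, and of 200 genes with more than 0 and up to 10 normalised reads there, 83 were higher and 6 lower. Such genes passed the filter through the H3.1 libraries themselves, so these counts are a description only. Of 7149 genes above 1000 and up to 10000 normalised reads in H3.3 WT, 104 were higher and 211 lower, and of 1094 genes above 10000 it was 14 and 46. By chromosome the median difference ran from -0.10 on chromosome 14 to 0.10 on chromosome 9 over the 13200 genes with a position.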

How the data were processed

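Trizol RNA went into Illumina TruSeq libraries, per the labels' protocols. Trimmomatic 0.32, STAR 2.3.0e, featureCounts 1.4.4, DESeq2 and the mouse build mm10 are listed in the submitters' processing notes. Not given in the sources used here: their order and settings, the annotation, strandedness and the DESeq2 version. What the authors deposited are log2-scale values from a variance-stabilising transformation of size-factor-scaled read counts. Low levels are compressed on this scale, which makes a poorly expressed gene's difference smaller than that of its logged reads.

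The lowest value of the table, 5.95, stands for 0 reads. Undoing the transformation gave reads per gene, whole to within 0.001 for 100% of values (largest deviation 4.77e-08), and from them the depth. At these depths 3 reads, the limit a count of 0 allows, are 6.60e-06% of the H3.1 K36M library and 5.64e-06% of the H3.1 K36R library. Fold intervals are exact binomial (Clopper-Pearson) at 95%, and intervals and floors cover counting error only. A fold against the floor takes the count of the other library as exact and is rounded down.

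The main comparison had 1 library a side and no test. The interaction used limma 3.58.1 in R 4.3.3 on the log2 values of all 8 libraries, with an intensity trend, two-sided. The labels name no independent derivation or repeat culture of a line, so its p-values measure only the spread between these libraries, which may be technical. That spread also holds differences between substitutions. H3.3 K36M and K36I were treated as replicates of 1 class, and H3.3 WT, K36A, K36L and K36R as replicates of the other. The steps were tested on simulated data. Alternatives were a filter at 2 above the lowest value, no filter beyond 1 read, equal library medians, library totals, a pseudocount of 1 on log2 normalised reads and, for the interaction, other filters, no trend and leaving out H3.3 lines.

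The comparison and the 43 gene lists (1288 genes, 1279 found, 7 by a synonym) were chosen with earlier results of these data known. Named genes are the 15 highest and 15 lowest differences without predicted genes, clones and small RNAs, up to 4 members of each list past 1 or otherwise its 2 largest, and fixed histone, H3K36 and PRC2 genes. Other list members named were chosen after their values were seen. Gene positions are GENCODE on GRCm38, the assembly behind mm10, matched by symbol for 179 of 185 named genes. Of these, 51 have exons overlapping another gene, 41 of them on the opposite strand. The count of columns with no sample was 0.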

Additional observations from a re-analysis of the deposited data

How the results depend on the processing

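The counts of genes differing by at least 1 depended mainly on the scale. On log2 of normalised reads plus 1, where low genes are less compressed, 1002 genes were higher and 742 lower (1744 in all), against 631, 449 and 1080. Under the other filters and scalings there were 426 to 747 higher and 359 to 473 lower. Setting library medians equal moved the median of all genes by 0.04 and using library totals by -0.03. With H3.3 K36I minus H3.3 K36R in place of the K36M difference the correlation over genes was 0.65, and with the mean of H3.3 K36M and K36I against the other 4 H3.3 lines it was 0.74. The interaction called 0 genes in all 9 alternatives, including those leaving out 1 H3.3 line each, with 1348 to 1743 genes at an unadjusted p under 0.05 and a smallest adjusted p of 0.107. Of 908 alternative values for the named genes, 67 moved by over 0.5, and 4 changed sign, each from a difference of at most 0.03 in size. Of 129 alternative list medians 7 moved by 0.25 or more and 6 changed sign, each from a median of at most 0.05 in size. The WNT median went from 0.05 to -0.54 when genes under 2 above the lowest value were left out. Library totals turned 4 list medians, each at most 0.02 in size. Both H3.1 values rest on a single library, and no library could be left out of that pair. No paired analysis was possible because each line has 1 library and the labels give no replicate numbers. Depth limits the genes near 0 reads, where a fold has a wide counting interval.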

Other observations

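Some differences lay side by side in the genome. Among the 13200 kept genes with a position on GRCm38, 35 runs of at least 3 consecutive genes differed by at least 1 in the same direction, 26 higher and 9 lower, holding 137 genes. These runs were looked for after the differences were seen and carry no test. Runs of class I and chemokine genes overlap the lists already described. A run of 7 on chromosome 1 (85088139 to 85736656) held Sp110, Sp140 and Sp100, nuclear body genes that interferon induces. Sp100 had 2198 normalised reads in H3.1 K36M, 129 in H3.1 K36R, 259 and 164 in H3.3 K36M and K36I, and 1.90 to 29.7 in the other H3.3 lines. A run of 5 on chromosome 11 (83028123 to 83226584) held Slfn2, Slfn3 and Slfn4, with Slfn2 at 670 and 17.5. A run of 3 on chromosome 7 (143607685 to 143686436) held the TNF receptor genes Tnfrsf26, Tnfrsf22 and Tnfrsf23, with Tnfrsf26 at 1508 and 19.7 and at 298 or less in each H3.3 line. On chromosome 13 (100144063 to 100316616) lay Naip2, Naip5 and Naip6, sensors of bacterial proteins, higher by 1.76 to 2.36. On chromosome 15 (54250619 to 54753762) Tnfrsf11b, Colec10 and Nov were lower together, with Colec10 at 110 and 1987. Genes of 1 such family are often near-identical, so reads may be shared between them, and its part in these runs was not tested.

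Imprinted genes, which are expressed from 1 parental copy, had 2 of 26 kept members higher and 2 lower by at least 1, against 4.38% and 3.12% of all genes. Snrpn had 145 normalised reads with H3.1 K36M and 0 reads with H3.1 K36R, at least 44.0-fold higher against a floor of 3 reads, and Peg3 had 417 and 59.0. Mest (209 and 1637) and Peg10 (116 and 356) were lower. Clustered protocadherin genes had 0 higher and 5 lower by at least 1 of 50 kept, against 4.38% and 3.12% of all genes. H3.1 K36R exceeded all 6 H3.3 lines for 32 of them and H3.1 K36M for 22, against 21.9% and 26.1% of all genes. In H3.3 K36M minus H3.3 K36R the same list had 13 higher and 0 lower, against 3.46% and 4.27% of all genes. Its median there was nonetheless -0.41, and -0.26 in H3.3 K36I minus H3.3 K36R. In the H3.1 pair the median was 0.02, with 36 of the 50 above 0, or 18 with library totals as scaling. The counts past 1 thus do not give the direction of most members. Some members had the same values, as with Pcdha2, Pcdha12 and Pcdhac1, each 2.16-fold higher in H3.1 K36M (1.22 to 3.94). Such members may count the same reads, so these counts are not of separate measurements, and how far reads are shared was not tested.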
